A study of Mus musculus with 6 samples.

Results

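A set of 9 genes of cell-cell adhesion was followed between mouse embryonic stem cells (mESCs) and the cardiac precursor cell cultures (CPCCs) derived from them: the classical cadherins *Cdh1*, *Cdh2*, *Cdh3* and *Cdh11*, the epithelial adhesion molecule *Epcam*, the claudins *Cldn4*, *Cldn6* and *Cldn7*, and the occludin gene *Ocln*. They were taken by gene symbol from the deposited tables of bulk RNA-seq counts and make up 9 of the 16279 genes that either table lists. Both cell types were male, from a cross labelled C57BL/6 x CAST/EiJ, in which the mother was C57BL/6J,, and 3 libraries were made of each. The mESCs were 3 single clones, taken from lines of separate blastocysts, and were kept without feeder cells in medium with serum, LIF and the 2i inhibitors. The CPCCs were derived from these clones through aggregates in hanging drops and then floating embryoid bodies in medium with ascorbic acid, were dissociated and passaged in medium with EGF and Fgf2, and were described by the study as heterogeneous cultures. The columns of the tables carry no replicate number, so the libraries are called S01, S02 and S03 (mESCs) and S04, S05 and S06 (CPCCs) and are not matched to clones. Values of the libraries of a cell type are given in this order.

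Classical cadherins are transmembrane proteins that bind like cadherins on the neighbouring cell and are tied to the actin cytoskeleton through catenins. A loss of E-cadherin with a gain of N-cadherin, called the cadherin switch, is a textbook mark of epithelial cells that become mesenchymal, as in the formation of mesoderm at gastrulation. Claudins and occludin are the membrane proteins of tight junctions, which seal the space between epithelial cells, and EpCAM is a surface glycoprotein of epithelial and pluripotent cells.

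The mESC libraries held between 6442639 and 6907330 counts and the CPCC libraries between 8468819 and 11436062, and levels are given as CPM, counts scaled to a library total of 1000000. In 1 library, 3 counts, taken as the floor, corresponded to between 0.262 and 0.466 CPM. Differences were tested by edgeR's quasi-likelihood test on 12471 genes that both tables list, with Benjamini-Hochberg adjustment and a threshold of 0.05, and the p-values measure the spread between these libraries. Fold changes are those of this fit, which scales libraries by TMM, and differ slightly from ratios of mean CPM. Of the tested genes, 31.7% were higher and 29.7% lower in CPCCs, and the median log2 fold change over them was 0.03. Among the 10 pluripotency markers examined, all 10 were lower in CPCCs, including *Pou5f1* (log2 fold change -3.11, and -3.88 without S06) and *Nanog* (-5.17, and -5.78 without S06), and their summed level was between 4975 and 5264 CPM in mESCs and at 146, 283 and 407 CPM in S04, S05 and S06. The 8 fibroblast and mesenchyme markers summed to between 9.93 and 17.1 CPM in mESCs and to between 6264 and 9068 CPM in CPCCs, with *Col1a1*, a collagen chain, at a log2 fold change of 12.40. Of 12 markers of cardiac precursors and muscle, 1 of the 4 tested was higher in CPCCs (*Tnnt2*, cardiac troponin T). Another 6 were listed for CPCCs only, *Tbx5* for mESCs only (1.09, 0 and 0.579 CPM), and *Mesp1* was in neither table. Of those listed for CPCCs only, *Mef2c* was at 17.0, 9.64 and 13.2 CPM in S04, S05 and S06. In the same libraries *Myh6* was at 18.6, 5.18 and 9.45 CPM and *Nkx2-5* at 1.40, 0 and 0.945 CPM. The study describes the cultures as enriched mainly for cardiac stem and progenitor cells, and the name CPCC is used here as their label.

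Of the 9 adhesion genes, 8 were tested and *Cdh11* was not, since the mESC table does not list it. In CPCCs, 4 of the 8 were higher (*Cdh2*, *Cdh3*, *Cldn6* and *Cldn7*) and 2 were lower (*Cdh1* and *Cldn4*), while *Epcam* and *Ocln* did not pass the test. The 3 libraries of one cell type did not overlap with those of the other in 6 of the 8 genes, against 69.3% of all tested genes. All 6 called genes changed at least 2-fold, where 25.5% of tested genes were at least 2-fold higher and 19.5% at least 2-fold lower. The median log2 fold change of the 8 genes was 0.60. A share of this size does not set the 8 genes apart from the rest of the transcriptome, and what follows is their individual levels.

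**Figure D1:**
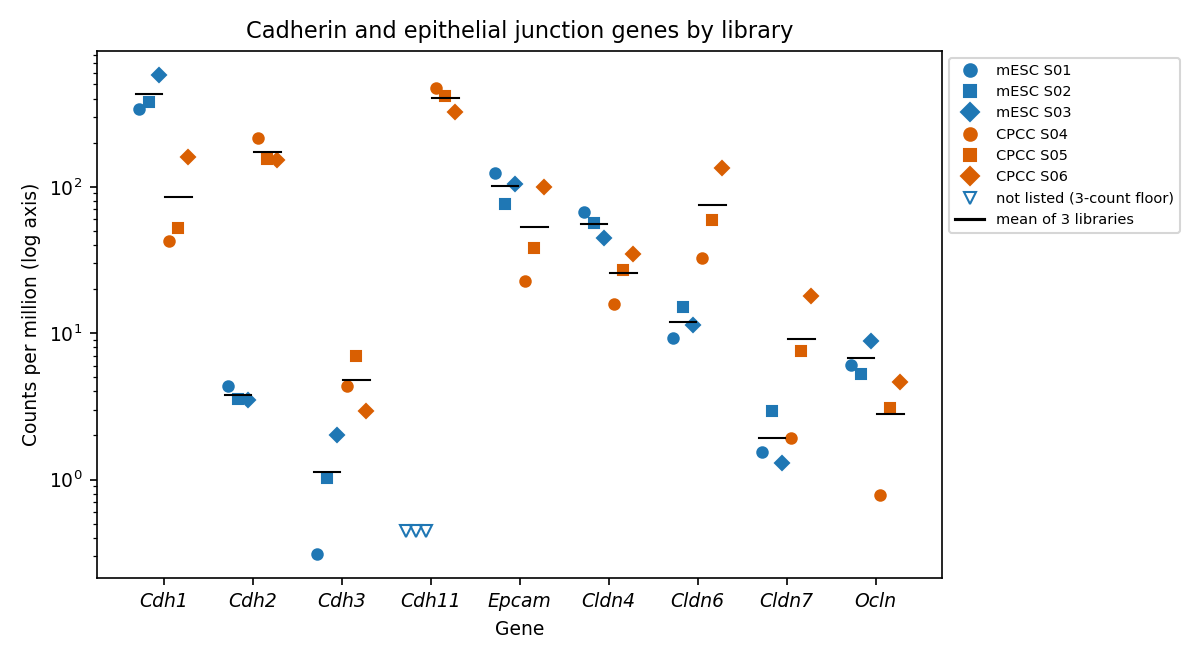
Level of each of the 9 genes in each library, in CPM on a log axis, with mESC libraries (S01 to S03) in blue, CPCC libraries (S04 to S06) in orange, lines at the mean of 3 libraries and open triangles at the floor of 3 counts where *Cdh11* is not listed. *Cdh1* was between 338 and 583 CPM in mESCs and between 42.7 and 159 CPM in CPCCs, and *Cdh2* was between 3.47 and 4.35 CPM and between 153 and 214 CPM.

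*Cdh1* encodes E-cadherin, the cadherin of epithelia and of naive pluripotent cells (chromosome 8, 106603350 to 106670248 on the forward strand, GRCm38). It was at 338, 377 and 583 CPM in mESCs against 42.7, 51.9 and 159 CPM in CPCCs. All mESC libraries were above all CPCC libraries. S03 was the highest of the mESC libraries and S06 the highest of the CPCC libraries. The mean was 433 ± 132 CPM in mESCs and 84.5 ± 64.6 CPM in CPCCs (SD, n = 3). In the fit it was 5.08-fold lower in CPCCs, with a log2 fold change of -2.35 (SE 0.45, edgeR, Benjamini-Hochberg adjusted p = 0.00168), and of -3.08 without S06. In bulk RNA, fewer cells that express *Cdh1* and less *Cdh1* RNA per cell cannot be told apart, and this holds for every level below.

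*Cdh2* encodes N-cadherin, the cadherin of mesoderm, neural tissue and heart muscle (chromosome 18, 16588877 to 16809247 on the reverse strand). Its counts were 28, 24 and 24 in the mESC libraries, or 4.35, 3.53 and 3.47 CPM. In S04, S05 and S06 it reached 214, 154 and 153 CPM. The mESC libraries lay within 1 CPM of each other, and every CPCC library was far above them. The mean rose from 3.78 ± 0.487 to 174 ± 35.0 CPM (SD, n = 3), and in the fit it was 48.3-fold higher, with a log2 fold change of 5.59 (SE 0.28, edgeR, Benjamini-Hochberg adjusted p = 1.82e-06). An antisense gene, *Gm15485*, overlaps *Cdh2*, and reads of the pair cannot be told apart in a library that does not mark the strand.

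*Cdh11* encodes OB-cadherin, a cadherin of mesenchyme and bone-forming cells (chromosome 8, 102632095 to 102785112 on the reverse strand). It was the most abundant cadherin of the CPCCs, at 476, 418 and 326 CPM in S04, S05 and S06 and with a mean of 407 ± 75.8 CPM (SD, n = 3). It is missing from the mESC table, in which every gene has at least 10 counts over the 3 libraries. Against 3 counts per mESC library, *Cdh11* was at least 910-fold higher in CPCCs, and the bound was between 832 and 1000 when single libraries were left out. Other annotated transcripts, among them *9430099M06Rik*, overlap it on the same strand.

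*Cdh3* encodes P-cadherin, first described in placenta and common in basal layers of epithelia. It lies on the same strand as *Cdh1* (chromosome 8, 106510852 to 106556912), with 46.437 kb between them. Its counts were 2, 7 and 14 in mESCs against 50, 59 and 25 in CPCCs, which is 0.310, 1.03 and 2.03 CPM against 4.37, 6.94 and 2.95 CPM. The neighbours thus had opposite directions, and at these counts the *Cdh3* groups were separate by a narrow margin, 2.03 against 2.95 CPM. Its log2 fold change was 2.12 (SE 0.69, edgeR, Benjamini-Hochberg adjusted p = 0.0241), or 4.35-fold higher in CPCCs. The call was lost without S01 (1.69), without S02 (2.06) or without S05 (1.78), and the value was 2.86 without S03.

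Counts were divided by exon length to compare cadherins with each other. The scale is then CPM per kb of exons. *Cdh1* stood at 94.6 ± 28.8 CPM per kb in mESCs (SD, n = 3), where *Cdh2* was at 0.469 ± 0.0604 and *Cdh3* at 0.256 ± 0.197. In CPCCs *Cdh11* was at 45.7 ± 8.51, *Cdh2* at 21.5 ± 4.34, *Cdh1* at 18.5 ± 14.1 and *Cdh3* at 1.08 ± 0.461 CPM per kb. The order of *Cdh2* and *Cdh1* in CPCCs was within their spread. With *Cdh11* taken as 0 in mESCs, E-cadherin made up 99.18%, 99.19% and 99.30% of the summed level of the 4 cadherins in mESCs, but 10.32%, 14.36% and 38.19% of it in CPCCs. N-cadherin took 29.38%, 24.20% and 20.82% and *Cdh11* took 59.19%, 59.44% and 40.25% in the same CPCC libraries. The ratio of *Cdh2* to *Cdh1* counts on the log2 scale was -6.28, -6.74 and -7.39 in mESCs and 2.33, 1.57 and -0.06 in CPCCs. The 2 groups did not overlap, and their means differed by 8.08 on the log2 scale, but in S06 the counts of both genes were close to equal.

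**Figure D2:**
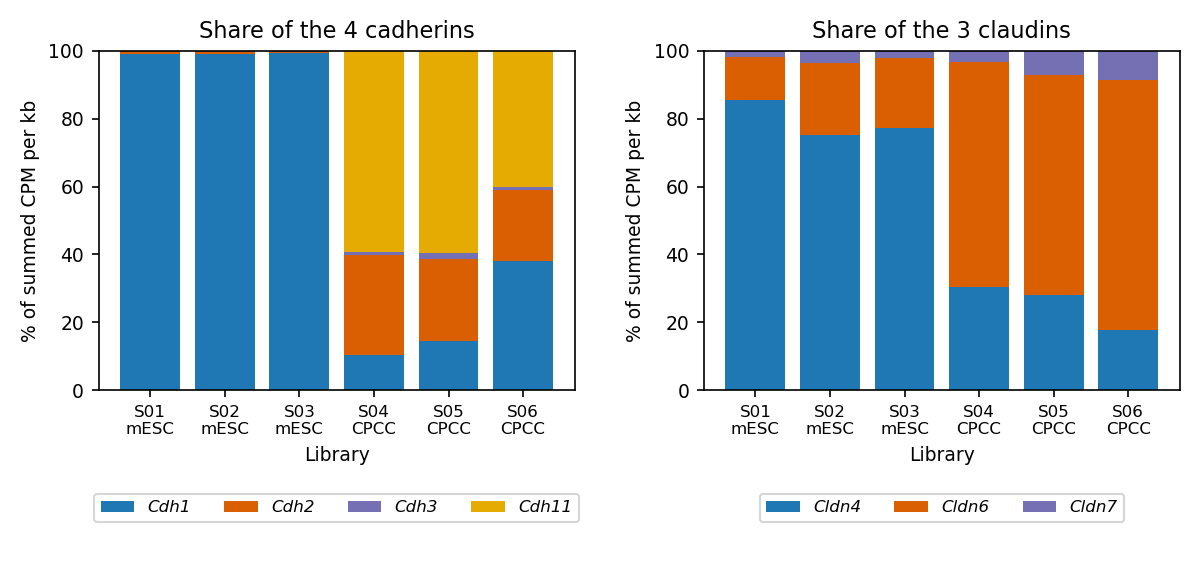
Share of each gene in the summed level of its family, in percent of CPM per kb of exons, for the 4 cadherins and the 3 claudins in each library. *Cdh1* fell from over 99% in each mESC library to 10.32% in S04, 14.36% in S05 and 38.19% in S06, and *Cldn6* rose from between 12.52% and 21.18% to between 64.73% and 73.56%.

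*Epcam* lies on chromosome 17 (87635979 to 87651128 on the forward strand). It was at 124, 76.1 and 105 CPM in mESCs against 22.8, 37.9 and 99.2 CPM in CPCCs. S04 and S05 were below all mESC libraries, whereas S06 lay among them. The mean was 53.3 ± 40.5 CPM in CPCCs (SD, n = 3) and the log2 fold change was -0.92 (SE 0.43, edgeR, Benjamini-Hochberg adjusted p = 0.0903), which did not pass the test. Without S06 the log2 fold change was -1.64 and passed.

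*Cldn4* encodes a claudin that tightens the epithelial barrier (chromosome 5, 134945124 to 134946935 on the reverse strand). It was at 67.2, 56.2 and 44.7 CPM in mESCs against 15.7, 26.9 and 34.6 CPM in CPCCs. The groups did not overlap. The mean was 56.1 ± 11.2 CPM in mESCs and 25.8 ± 9.48 CPM in CPCCs (SD, n = 3), and in the fit CPCCs were 2.13-fold lower, with a log2 fold change of -1.09 (SE 0.27, edgeR, Benjamini-Hochberg adjusted p = 0.0065).

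*Cldn6* encodes a claudin known from embryonic epithelia and from differentiating stem cells (chromosome 17, 23679365 to 23682447 on the forward strand). It moved the opposite way, from 9.31, 15.0 and 11.4 CPM in the mESC libraries to 32.5, 59.0 and 135 CPM in the CPCC libraries. Every CPCC library was above every mESC library, and the CPCC libraries spread over a 4.16-fold range. The mean was 11.9 ± 2.88 CPM in mESCs and 75.6 ± 53.4 CPM in CPCCs (SD, n = 3), and in the fit it was 6.38-fold higher in CPCCs, with a log2 fold change of 2.67 (SE 0.45, edgeR, Benjamini-Hochberg adjusted p = 0.000828), and of 2.04 without S06.

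*Cldn7*, a claudin of the lateral membrane that binds EpCAM, lies on chromosome 11 (69964779 to 69967887 on the forward strand). Its counts were 10, 20 and 9 in mESCs against 22, 64 and 152 in CPCCs, or 1.55, 2.94 and 1.30 CPM against 1.92, 7.53 and 17.9 CPM. S04 lay within the range of the mESC libraries and S05 and S06 above it. The log2 fold change was 2.22 (SE 0.73, edgeR, Benjamini-Hochberg adjusted p = 0.0253), and the call was lost without S01 (2.09), without S03 (2.01) or without S06 (1.35).

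*Ocln* encodes occludin (chromosome 13, 100497367 to 100552499 on the reverse strand). Its counts were 39, 36 and 61 in mESCs against 9, 26 and 39 in CPCCs, or 6.05, 5.30 and 8.83 CPM against 0.787, 3.06 and 4.61 CPM. The groups did not overlap, although the test was not passed, with a log2 fold change of -1.25 (SE 0.58, edgeR, Benjamini-Hochberg adjusted p = 0.0883). Without S06 it was -1.74 and passed.

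Per kb of exons, the 5 genes of epithelial adhesion and tight junctions changed places. In mESCs the order was *Epcam* (46.31 ± 11.05 CPM per kb), *Cldn4* (30.9 ± 6.19), *Cldn6* (6.93 ± 1.67), *Ocln* (1.59 ± 0.441) and *Cldn7* (0.992 ± 0.454; SD, n = 3). In CPCCs it was *Cldn6* (43.9 ± 31.0), *Epcam* (24.3 ± 18.4), *Cldn4* (14.2 ± 5.22), *Cldn7* (4.69 ± 4.17) and *Ocln* (0.667 ± 0.455). In CPCCs the SDs of *Cldn6*, *Epcam* and *Cldn4* overlapped, as did those of *Cldn7* and *Ocln*, but *Cldn6* was above *Epcam* in each library. *Ocln* and *Cldn7* in mESCs were within each other's spread. Of the 3 claudins, *Cldn4* made up between 75.16% and 85.64% of the summed level in mESCs and 30.35%, 27.98% and 17.82% in S04, S05 and S06, while *Cldn6* made up 66.19%, 64.73% and 73.56% there. *Cldn6* counts relative to *Cldn4* counts were -2.85, -1.91 and -1.97 on the log2 scale in mESCs and 1.05, 1.13 and 1.97 in CPCCs, without overlap.

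**Figure D3:**
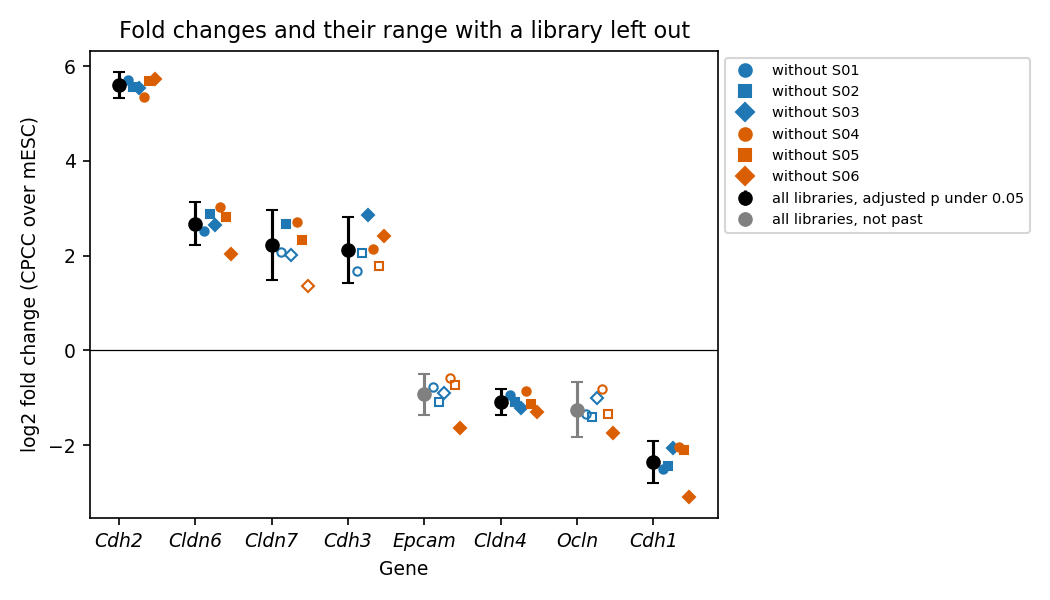
Log2 fold change of CPCCs over mESCs for the 8 tested genes, with all libraries (black where the test was passed, grey where not, bars of 1 standard error) and with each library left out in turn (small points, filled where the test was passed). *Cdh2* was at 5.59 and *Cdh1* at -2.35, and the fall of *Epcam* and *Ocln* passed the test only without S06.

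SNAIL and ZEB proteins, repressors of the epithelial state, are known to bind the E-box CAGGTG in the promoters of epithelial genes. Since genes of this family rose in CPCCs, as given below, the 250 bases before the start site were searched for CAGGTG on both strands (CACCTG where it lies on the other strand) in RefSeq's promoter windows on GRCm38.p6. Of the 9 genes, 5 had a window, *Epcam*, *Cldn4*, *Cldn6*, *Cldn7* and *Ocln*, with 7 windows in all. The E-box was in 5 of these 7 windows, against 17.2% of 32851 windows in the whole table. At least 1 window of each of the 5 genes held it, against 19.4% of 27025 genes. The windows without it were those before the outer starts of *Cldn7* (69964529 to 69964778) and *Ocln* (100552719 to 100552968). The 2 windows shown in full belong to genes that are highly expressed in mESCs, with the E-box in capitals:
Epcam, chr17:87635729-87635978, forward strand: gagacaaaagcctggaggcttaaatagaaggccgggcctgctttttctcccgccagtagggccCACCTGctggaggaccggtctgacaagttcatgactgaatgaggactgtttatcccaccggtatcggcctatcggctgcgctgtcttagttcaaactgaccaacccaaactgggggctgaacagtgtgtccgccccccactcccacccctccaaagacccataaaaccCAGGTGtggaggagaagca
Cldn4, chr5:134946935-134947184, reverse strand: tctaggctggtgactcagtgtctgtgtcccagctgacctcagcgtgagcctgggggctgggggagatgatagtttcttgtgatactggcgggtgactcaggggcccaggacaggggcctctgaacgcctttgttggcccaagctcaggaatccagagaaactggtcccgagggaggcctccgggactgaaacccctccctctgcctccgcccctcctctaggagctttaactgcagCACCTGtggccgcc

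For the other three genes the E-box is shown with the bases around it, to set genes that rose beside one that did not pass the test:
Cldn6, chr17:23679260-23679289, forward strand: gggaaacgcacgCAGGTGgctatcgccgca
Cldn7, chr11:69965312-69965341, forward strand: tttcttcctcttCACCTGgacgaggagggg
Cldn7, chr11:69965352-69965381, forward strand: agacttccggttCAGGTGagtgtcccttca
Ocln, chr13:100552694-100552723, reverse strand: ccatcggagtttCAGGTGaatgggtcaccg
Ocln, chr13:100552549-100552578, reverse strand: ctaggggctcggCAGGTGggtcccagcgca

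Counted to the start that its window precedes, the first base of the E-box lay 187 and 19 bases upstream in *Epcam* and 14 in *Cldn4*. It lay 93 bases upstream in *Cldn6*, 97 and 57 in *Cldn7*, and 213 and 68 in *Ocln*. The *Cldn7* window with the E-boxes (69965171 to 69965420) lies inside the gene as placed above. By the GENCODE annotation, the E-boxes of *Cldn6* and *Ocln* also lie inside the gene, with outer starts at 23679249 and 100552718. The E-box was thus found alike in *Cldn4*, which fell, and in *Cldn6* and *Cldn7*, which rose. The GC-box GGGCGG, searched in the same way, was in 6 of the 7 windows and in 32.7% of all windows. These matches are descriptions of letters in the windows and not of binding.

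The 6 genes with epithelial expression, *Cdh1*, *Epcam*, *Cldn4*, *Cldn6*, *Cldn7* and *Ocln*, differed between the CPCC libraries in the same order. All 6 were lowest in S04 and highest in S06, as were 35.3% of all tested genes, and all 6 were at least 2-fold higher in S06 than in S04, as were 17.7% of tested genes. The level in S06 was 3.72-fold that of S04 for *Cdh1*, 4.35-fold for *Epcam*, 2.20-fold for *Cldn4*, 4.16-fold for *Cldn6*, 9.33-fold for *Cldn7* and 5.85-fold for *Ocln*. *Cdh2* and *Cdh11* ran the other way, with S06 at 0.713 and 0.684 of S04, and *Cdh3* was highest in S05. These levels and shares are of CPM without TMM. The TMM factors, 0.923 for S04 and 1.07 for S06, would lower every ratio of S06 to S04. Of the 6 genes, *Cldn4* was the nearest to 2-fold.

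The pluripotency markers moved with these genes across the CPCC libraries, with 8 of 10 lowest in S04 and highest in S06 and 9 of 10 at least 2-fold higher in S06. *Pou5f1* was at 2.27%, 10.8% and 21.9% of the mESC mean in S04, S05 and S06, and *Nanog* at 0.759%, 2.73% and 4.82%. *Cdh1* stood at 9.86%, 12.0% and 36.7% of its mESC mean in the same libraries, *Epcam* at 22.5%, 37.3% and 97.6%, and *Cldn4* at 28.1%, 48.0% and 61.7%. *Epcam* and *Cldn4* lay above *Pou5f1* and *Nanog* in every CPCC library, as did *Cdh1*. The other markers were not all below *Cdh1*, since *Klf4* was at 16.5%, 10.8% and 9.55%, *Sox2* at 7.05%, 26.0% and 25.4% and *Utf1* at 8.38%, 36.5% and 57.0% of the mESC mean. *Cldn6* was at 273%, 495% and 1135% of its mESC mean and *Cldn7* at 99.5%, 389% and 929%. The 8 markers of surface and gut epithelium summed to between 4.97 and 5.59 CPM in mESCs and to 48.9, 78.9 and 61.2 CPM in S04, S05 and S06. Most of this sum in CPCCs came from the 2 tested markers, both called higher. These were *Krt7* (27.2, 28.1 and 30.3 CPM, log2 fold change 3.05) and *Foxa2* (5.25, 45.6 and 17.5 CPM, 4.94). *Krt14* and *Trp63* averaged 0.530 and 0.491 CPM in CPCCs, and *Krt5* and *Vil1* were in neither table. The part of either marker list in the levels of the adhesion genes was not tested.

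**Figure D4:**
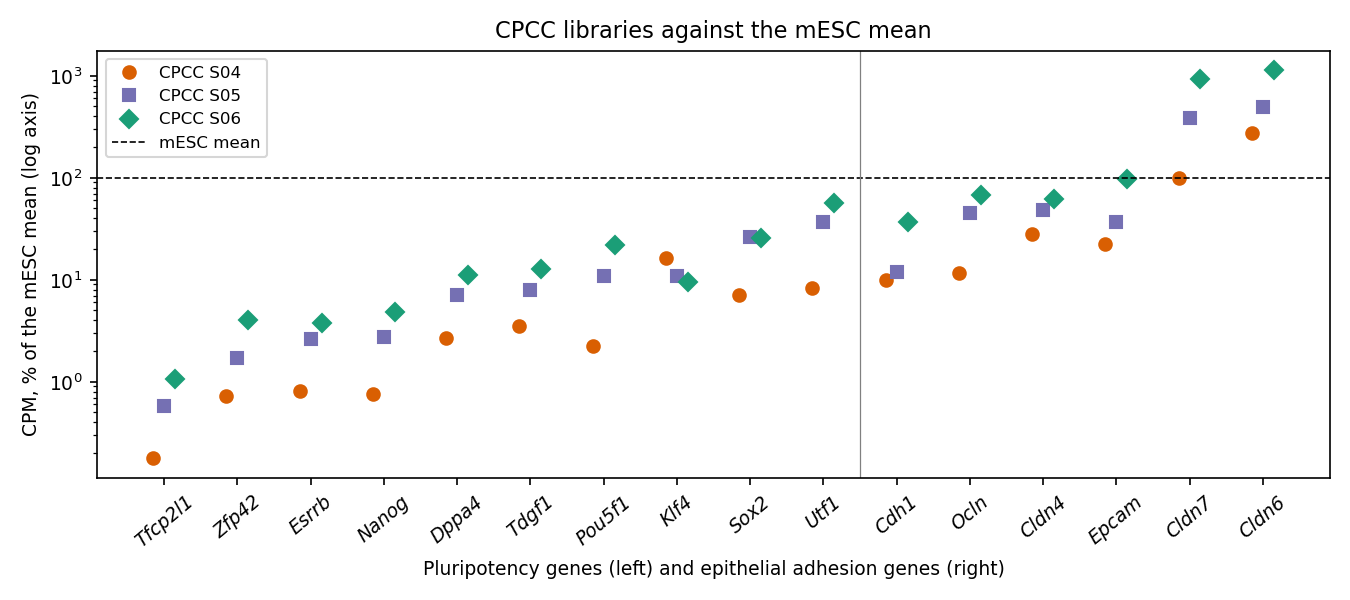
Level in each CPCC library as a percent of the mESC mean, on a log axis, for the 10 pluripotency markers (left) and the 6 epithelial adhesion genes (right), with a dashed line at the mESC mean. *Cdh1* was at 9.86% in S04 and 36.7% in S06, *Pou5f1* at 2.27% and 21.9%, and *Cldn6* at 273% and 1135%.

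Of 18 other cadherin genes, 3 were tested, 8 were listed for CPCCs only, 6 were in neither table and *Cdh15* was listed but too low to test. *Cdh22*, named after its value was seen, was higher in CPCCs (log2 fold change 2.86), although its libraries overlapped, and *Cdh4* and *Cdh24* did not pass. *Cdh6*, a cadherin of kidney and neural crest, was at 99.4, 158 and 185 CPM in S04, S05 and S06 and at least 330-fold higher than the floor of mESCs. *Cdh13*, a cadherin without a cytoplasmic tail that was picked out after its values were seen, was at 100, 176 and 130 CPM and at least 303-fold higher. None of the 3 tested genes of this list was lower in CPCCs, where 29.7% of all tested genes were. So few genes cannot be set against that share. The endothelial *Cdh5* was at 11.02, 1.29 and 1.65 CPM in the same libraries. Of the other endothelial markers, *Tie1* and *Cldn5* were in neither table, *Emcn* was listed for CPCCs only, *Tek* did not pass and *Pecam1* was at 91.0 CPM in mESCs and 4.31 CPM in CPCCs on average. The 3 tested cadherins had a median log2 fold change of 0.52, and without S04 there were 2 higher in place of 1.

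Of 17 genes of catenins and the adherens junction plaque, 16 were tested. In CPCCs 7 were higher and 4 lower, against 31.7% and 29.7% of all tested genes, and the median log2 fold change was 0.62. *Ctnna2*, the neural alpha-catenin, rose from 0.776, 1.32 and 0 CPM in the mESC libraries to 8.22, 20.2 and 14.8 CPM in the CPCC libraries (log2 fold change 4.38, and 5.24 without S02). *Vcl* (vinculin, which links the junction to actin) rose by 2.53 and *Nectin1* (an adhesion molecule of the immunoglobulin family) by 2.26 on the log2 scale. Further catenins were named after their values were seen. *Jup* rose by 1.84 and *Ctnnd2* by 1.69 on the log2 scale. *Ctnnb1*, beta-catenin, was between 839 and 1043 CPM in mESCs and between 863 and 933 CPM in CPCCs, with a log2 fold change of 0.03 (SE 0.15, edgeR, Benjamini-Hochberg adjusted p = 0.874), and its sign turned when libraries were scaled without TMM. *Ctnnd1*, p120-catenin, rose by 1.53 and *Ctnna1*, alpha-catenin, fell by 0.49 on the log2 scale, and the call on *Ctnna1* was lost without S01 (-0.50), S02 (-0.49), S03 (-0.47), S05 (-0.47) or S06 (-0.40). With any 1 of these 5 libraries left out, 2 genes of the list were lower in place of 4.

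Of 19 other claudin genes, 3 were tested, 5 were listed for CPCCs only, 10 were in neither table and *Cldn15* was too low to test. *Cldn3* fell from 13.3, 11.2 and 8.11 CPM in mESCs to 0.700, 1.65 and 1.54 CPM in CPCCs (log2 fold change -3.03), and *Cldn12* rose from between 16.9 and 19.9 CPM to between 105 and 121 CPM (2.67). The third, *Cldn19*, did not pass, and the median of the 3 was -0.82. *Cldn1* was listed for CPCCs only, at 4.55, 4.82 and 2.60 CPM and at least 8.92-fold higher. *Cldn3* and *Cldn4*, both claudins that tighten epithelia, were thus lower in CPCCs, and *Cldn6*, *Cldn7* and *Cldn12* were higher.

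The other genes of tight junctions and of cell polarity numbered 18. Of these, 16 were tested, and 5 were higher and 4 lower in CPCCs, as were 31.7% and 29.7% of all tested genes. The median log2 fold change was 0.31. *Lsr*, the receptor of tricellular junctions, rose by 2.68 and *Cgnl1*, paracingulin, by 2.38 on the log2 scale. *Tjp3*, the scaffold ZO-3, was at 3.57, 6.03 and 6.51 CPM in mESCs against 0.0874, 1.53 and 0 CPM in CPCCs (log2 fold change -3.29), and the call was lost without S02 (-3.19) or S03 (-3.11). Without S05, which leaves CPCC libraries of 1 and 0 counts, the fitted value was -6.29. *Marveld3*, an occludin relative, was listed for CPCCs only, at 1.40, 1.53 and 3.54 CPM in S04, S05 and S06. Its mean was 4.82-fold the floor of mESCs, and its lowest library 3.00-fold. Without S03, 2 genes of this list were lower in place of 4.

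Desmosomes, which tie keratin filaments to the junction, were represented by 9 genes, of which 6 were tested. In CPCCs 3 were higher and 1 was lower, beside 31.7% and 29.7% of all tested genes, with a median log2 fold change of 1.14. *Dsg2*, a desmosomal cadherin, fell from 204, 176 and 231 CPM in the mESC libraries to 11.5, 6.47 and 11.6 CPM in the CPCC libraries (log2 fold change -4.30). *Dsc2*, the other kind of desmosomal cadherin, rose from between 0.579 and 2.64 CPM to between 8.82 and 15.6 CPM (3.16, and 4.03 without S01). *Perp*, a membrane protein of desmosomes, rose by 5.06 on the log2 scale (4.32 without S04), and *Pkp1*, a plakophilin, was listed for CPCCs only and was at least 4.82-fold higher. Without S06, 2 genes of this list were lower in place of 1.

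Of 15 genes of the epithelial programme, 13 were tested, and 3 were higher and 3 lower in CPCCs. The shares over all tested genes were 31.7% and 29.7%. The median log2 fold change of the list was 0.04. The keratins of simple epithelia rose from between 3.97 and 6.83 CPM to between 229 and 428 CPM (*Krt8*, log2 fold change 5.91) and from between 1.74 and 4.81 CPM to between 225 and 365 CPM (*Krt18*, 6.63). Both genes have processed copies in the genome that could share reads, and their counts are uncertain to that extent. *Elf3*, an epithelial transcription factor, fell from 102, 88.3 and 106 CPM to 0.437, 2.94 and 3.78 CPM (-5.39). *Esrp1*, an epithelial splicing regulator, was listed for CPCCs only, at 2.45, 6.35 and 17.7 CPM in S04, S05 and S06 and at least 19.8-fold higher.

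The 7 transcription factors known to drive the epithelial-mesenchymal transition were all higher in CPCCs or listed only there. All 4 that were tested were higher, where 31.7% of all tested genes were, and 3 were missing from the mESC table. The 4 had a median of 3.05 on the log2 scale, where the median of all tested genes was 0.03. The call on *Zeb1* (0.64) was lost without S01 or S05. *Snai1* rose from 0.310, 0.442 and 0.724 CPM to 18.9, 11.9 and 6.02 CPM (log2 fold change 4.69) and *Snai2* from 0.621, 0.589 and 1.88 CPM to 30.4, 20.5 and 16.8 CPM (4.51). *Tcf4*, an E-protein, rose by 1.59 on the log2 scale. *Zeb2* was at 79.9, 45.5 and 57.5 CPM in S04, S05 and S06 and at least 136-fold higher. Within the CPCCs, *Snai1*, *Snai2*, *Tcf4* and *Twist1* ran from highest in S04 to lowest in S06, as did *Cdh2* and 14.6% of all tested genes, whereas *Zeb1* was lowest in S04, *Zeb2* lowest in S05 and *Twist2* highest in S05. Without S03 the log2 fold change of *Snai2* was 5.28.

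**Figure D5:**
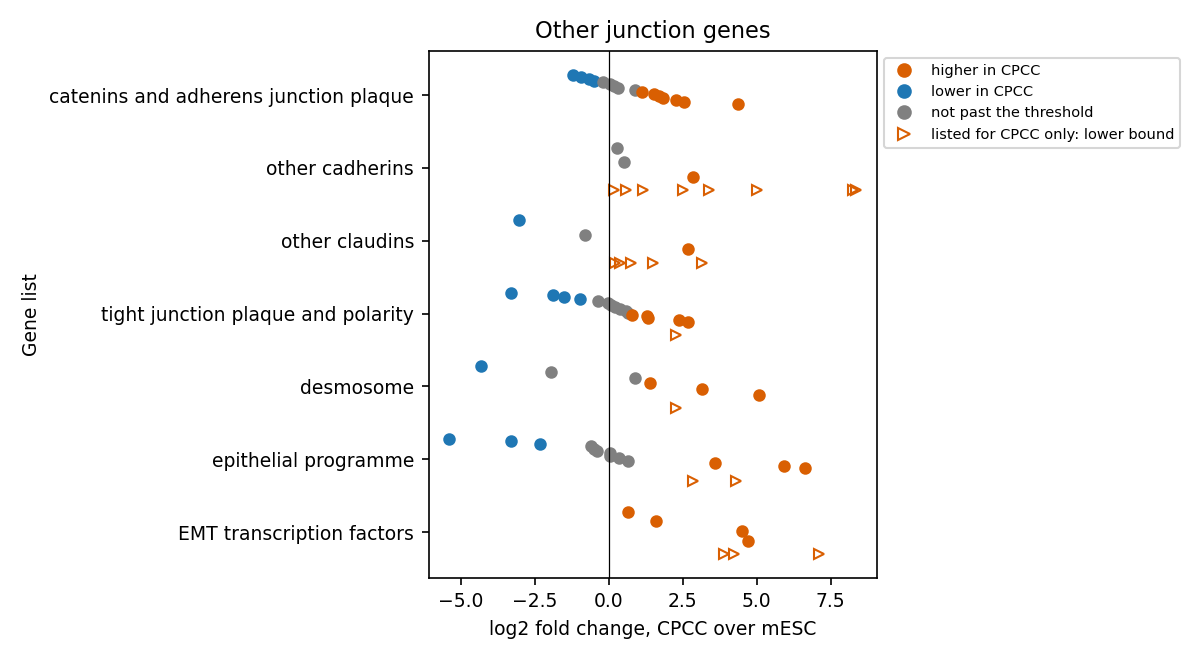
Log2 fold change of CPCCs over mESCs for the genes of the 7 lists, with tested genes as filled points (orange higher, blue lower, grey not past the test) and the lower bounds of genes listed for CPCCs only as open triangles, spread vertically within a list for legibility. The 4 tested transcription factors of the epithelial-mesenchymal transition lie above 0, between *Zeb1* at 0.64 and *Snai1* at 4.69, and the epithelial programme runs from *Elf3* at -5.39 to *Krt18* at 6.63.

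Over the 6 libraries, the genes whose log2 CPM was most like that of *Cdh1* were *Mrpl34* (Pearson's r = 0.998), *Ctcf* (0.998) and *Tube1* (0.998). For *Cdh2* they were *Rhod* (1.000), *Lpp* (0.999) and *Nexn* (0.999), of which *Lpp* and *Nexn* encode proteins of cell-matrix or cell-cell adhesion sites. The 6 points are 3 libraries of each of 2 cell types, and with 12471 genes compared such values describe the pattern only.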

How the data were processed

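The authors made polyA cDNA with SMART-Seq v4, a kit that does not mark the strand, and Nextera XT libraries, and the values deposited, 1 table for each cell type, are their estimated counts per gene before any normalization. The submitters' notes name STAR 2.7 and mm10. The counter and its strand setting are not given in the sources used here. In each library, 17.9% to 21.5% of values were not exactly whole, with no tolerance for rounding. Each table lists genes with a sum of at least 10, so each left out low genes on its own.

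The estimated counts were rounded. Of 13001 genes in both tables, edgeR's filterByExpr removed 530. Cell types were compared with the quasi-likelihood test of edgeR 4.0.16 in R 4.3.3, using TMM factors, libraries sized on shared genes, and a Benjamini-Hochberg threshold of 0.05. The script was tested on simulated data. Printed CPM are counts per 1000000 of a column's total, without TMM. Exon lengths are unions of GENCODE M21 exons (GRCm38). Bounds divide the mean CPM of the listed libraries by the mean floor of 3 counts in the others, and carry no error term. A gene missing from a table can hold more than 3 counts in 1 library. Positions are those of the tables, whose ends often lie 1 base past the annotation. Alternatives were DESeq2 1.42.0, other scalings, filters and fills for missing genes, and leaving out each library. Library sizes over whole tables were added after seeing the data.

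The genes and lists were chosen with earlier results of these data known. Named from each list were the 3 largest changes past the test without overlap and the largest bound among genes of 1 table only, with 3 correlates each for *Cdh1* and *Cdh2*, and *Pou5f1*, *Nanog* and *Col1a1*. Other names in the lists were chosen after their values were seen. Python 3.11.15 was used. Allele-specific, single-cell and chromatin data were not analysed here.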

Additional observations from a re-analysis of the deposited data

How the results depend on the processing

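The directions of the 8 tested adhesion genes held under every alternative in which each was tested, and the calls on *Cdh1*, *Cdh2*, *Cldn4* and *Cldn6* held in each. The number of higher adhesion genes, 4, was 2 with at least 10 counts in every library, which leaves *Cdh3*, *Cldn7* and *Ocln* untested, and between 2 and 4 with 1 library left out, and the number of lower genes was between 2 and 4. With 1 library left out, log2 fold changes ranged from -3.08 to -2.05 for *Cdh1*, from 5.35 to 5.73 for *Cdh2*, from 1.69 to 2.86 for *Cdh3*, from -1.64 to -0.57 for *Epcam*, from -1.29 to -0.86 for *Cldn4*, from 2.04 to 3.02 for *Cldn6*, from 1.35 to 2.71 for *Cldn7* and from -1.74 to -0.81 for *Ocln*. The shift of the log2 ratio of *Cdh2* to *Cdh1* was between 7.56 and 8.75.

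With at least 10 counts in every library, higher genes numbered 0 of the other cadherins and 2 of the transcription factors, and lower genes 0 of the other claudins and 1 of the epithelial programme. With missing genes set to 0 or to 3 counts, higher genes numbered 4 of the other cadherins, 2 of the other claudins, 5 of the epithelial programme and 7 of the transcription factors. With 3 counts, and with DESeq2, 2 desmosome genes were lower. With 1 library left out, higher genes numbered 1 to 2 of the other cadherins, and lower genes 2 to 4 of the catenin list, 2 to 4 of the tight junction list and 1 to 2 of the desmosome list. *Ctnnb1*, at 0.03, was at -0.031 without TMM, at -0.038 with missing genes set to 3 counts and between -0.029 and 0.14 with 1 library left out.

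No paired analysis was possible because the columns carry no replicate numbers. *Cdh3*, *Cldn7* and *Ocln* had between 2 and 152 counts in a library, which limits their precision.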
